A study of Helianthus annuus with 180 samples.

Results

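Sunflower stems carry a group of 150 genes whose transcripts were lowest in the morning and highest around dusk in solar tracking plants in the field. They were chosen from the normalized heliotropism table of 34071 genes in 3 steps. First, the 21182 genes whose mean reached 5 CPM (read counts scaled by the authors to a common library size, with TMM factors for library composition) were kept. A cosine curve with a period of 24 h was then fitted by least squares to all 72 field libraries, and 9056 genes had an R2 (the share of the variance that the curve takes up) of at least 0.5. Of these, 1074 reached the top of the curve, the acrophase, from ZT12 to under ZT16 (Zeitgeber time, hours after dawn), and the 150 with the largest relative amplitude (amplitude divided by the mean level of the curve) became the members of the evening group. Field level, time of day and rhythm strength therefore chose the members, and all values of these in the field are given as a description without a test.

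Plant cells keep time with a circadian clock, a network of transcription factors that repress and activate each other over the day. In Arabidopsis, LHY and the related RVE factors are made around dawn, PRR proteins follow through the day, and TOC1 and the evening complex of LUX, ELF3 and ELF4 act around dusk. The clock and the light cycle together time many output genes, among them genes for starch breakdown, sugar export, thiamin synthesis, growth and stress responses. Transcripts that peak near dusk are abundant when photosynthesis ends and when a solar tracking stem, which points west in the evening, begins to swing back to the east.

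All libraries came from wild-type plants of the line HA412-HO, and each was made from stem peels (epidermis, cortex and vascular tissue) of 2 plants pooled. In heliotropism, young plants moved to the field were sampled every 4 h for 2 days from ZT0, with 3 libraries from the east side and 3 from the west side of stems at each of 12 time points. Once the days are combined, each side has 6 libraries at each of 6 times of day. In phototropism, 2-week-old plants raised in a growth chamber under long days were placed beside a blue light at ZT3, which shone from 1 side and stayed on. Their lit and shaded sides were sampled at 9 times from ZT3 to ZT21, with 6 libraries per side and time. Plants in the field followed the sun freely, and the chamber libraries at ZT3 were taken when the blue light began, with none at a later time from plants kept without it. Each field day was sampled once, and in the chamber the time of day, the length of the light treatment and the bending of the stem cannot be told apart.

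Estimated counts summed to 5074975 to 30834562 per field library and to 4485611 to 28394943 per chamber library, and the rarest member still had 6119 counts over the field libraries and 1677 over the chamber libraries. All 150 members passed the filter on low counts in both experiments, and no pair of libraries held identical values. At least 1 library had a count of 0 for 9 members in the field and for 12 in the chamber. Markers of epidermis (15 of 16 in the tables), phloem (7 of 7), xylem (6 of 6) and green tissue (1 of 1) were read beside the results. In bulk peels, fewer cells of a type and less RNA per cell cannot be told apart.

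In the field, the members had a median level of 4.78 CPM at ZT4, which rose to 14.3 CPM at ZT8 and 48 CPM at ZT12 and then declined to 34.8 CPM at ZT16, 13.8 CPM at ZT20 and 5.63 CPM at ZT0. The highest mean fell at ZT12 for 105 members and at ZT16 for 45. The lowest fell at ZT4 for 103 members, at ZT0 for 46 and at ZT8 for 1. Acrophases ran from ZT12.0 to ZT15.8 (median ZT13.7). The step from ZT8 to ZT12 was a median of 2.70-fold and reached 63.6-fold, and the level at ZT16 was a median of 0.794 times that at ZT12. The highest mean was 4.65 to 265 times the lowest (median 10.1 times), at least 10 times in 76 members and at least 100 times in 7. Mean levels spanned 5.05 to 1347.5 CPM, with 28 members under 10 CPM and 14 at 100 CPM or more.

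**Figure D1:**
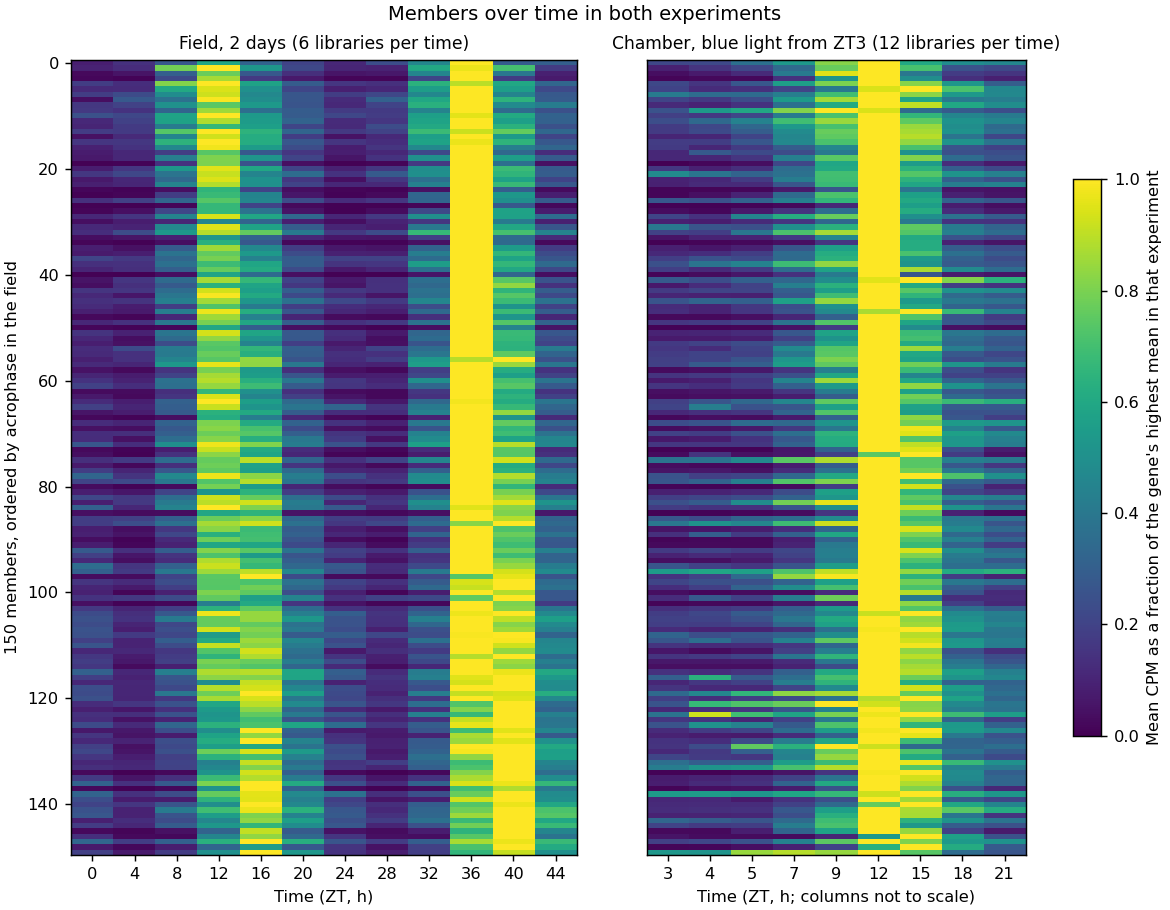
Heat map of the 150 evening members (rows, ordered by field acrophase) over the 12 field time points (6 libraries each) and the 9 chamber time points (12 libraries each), columns in ZT hours. Colour is the mean CPM at that time as a fraction of the gene's highest mean in that experiment; the bright band sits at ZT12 to ZT16 on both field days, and in the chamber the brightest column is ZT12, where 132 members had their highest mean.

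The strongest rhythms were near silence by morning and abundant by dusk. The member with the largest relative amplitude, Ha412HOChr17g0827811 (relative amplitude 1.72, no name in the tables used here), ranged from 0.367 to 4.48 CPM (median 0.759) over the 12 libraries at ZT4 and from 216 to 451 CPM (median 302) at ZT12. No library at ZT12 came near any at ZT4. At rank 2, Ha412HOChr17g0815951, whose best Arabidopsis match is a DNAJ heat shock domain protein of the kind that assists folding, went from 0.292 to 2.32 CPM (median 0.847) at ZT4 to 66.5 to 128 CPM (median 94.4) at ZT12. At rank 3, the RING/U-box gene Ha412HOChr04g0166931, a type of protein that attaches ubiquitin to targets, went from 0 to 0.507 CPM at ZT4 to 41.2 to 95.5 CPM at ZT12, and its ratio of means, 265, was the largest of all members. The other 7 of the first 10, Ha412HOChr09g0396481, Ha412HOChr16g0755631, Ha412HOChr08g0362051, Ha412HOChr04g0199411, Ha412HOChr10g0434271, Ha412HOChr05g0206171 and Ha412HOChr17g0828491, have no Arabidopsis match in the tables used here. Among them Ha412HOChr05g0206171 held 658 to 1064 CPM (median 888) at ZT12 against 7.33 to 17.8 CPM (median 11.1) at ZT4.

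The list ends within a continuum rather than at a gap. The last 2 members, Ha412HOChr02g0062391 and Ha412HOChr06g0265451, had relative amplitudes of 0.759 and 0.757, and the next 2 candidates, Ha412HOChr05g0211261 and Ha412HOChr08g0327161, had 0.756 and 0.753. Before ranking, the mean CPM nearest the minimum was 5.01 inside (Ha412HOChr02g0058891) and 4.99 outside (Ha412HOChr15g0735091). For R2 these were 0.5002 (Ha412HOChr14g0668111) and 0.4996 (Ha412HOChr17g0843761). At the acrophase limits, Ha412HOChr13g0587791 lay inside at ZT12.0002 and Ha412HOChr12g0574521 outside at ZT11.9957, and Ha412HOChr02g0082271 lay inside at ZT15.9996 and Ha412HOChr04g0177511 outside at ZT16.0014.

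Clock and flowering genes supplied 3 members, of which 2 are homologs of core clock genes. The LUX-like gene Ha412HOChr08g0371471, homolog of an evening complex transcription factor, had its acrophase at ZT13.5, with 0.850 to 1.83 CPM (median 1.32) at ZT4 and 27.3 to 54.4 CPM (median 39.4) at ZT12. The RVE6-like gene Ha412HOChr09g0395701 encodes a MYB-like factor of the family of LHY. It had its acrophase at ZT14.3, with 3.18 to 7.08 CPM (median 4.81) at ZT4 and 87.3 to 127 CPM (median 102) at ZT12. A second RVE6-like gene that is not a member, Ha412HOChr16g0792081, had its acrophase at ZT3.89, so genes with the same best match peaked in the morning and in the evening. The homolog of the flowering regulator COL9, Ha412HOChr12g0560721, a CONSTANS-like gene that delays flowering in Arabidopsis, was later, with an acrophase of ZT15.2. Its libraries held 0.0525 to 0.885 CPM (median 0.379) at ZT4, 23.6 to 42.8 CPM (median 32.4) at ZT12 and 41.3 to 51.9 CPM (median 48.2) at ZT16.

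**Figure D2:**
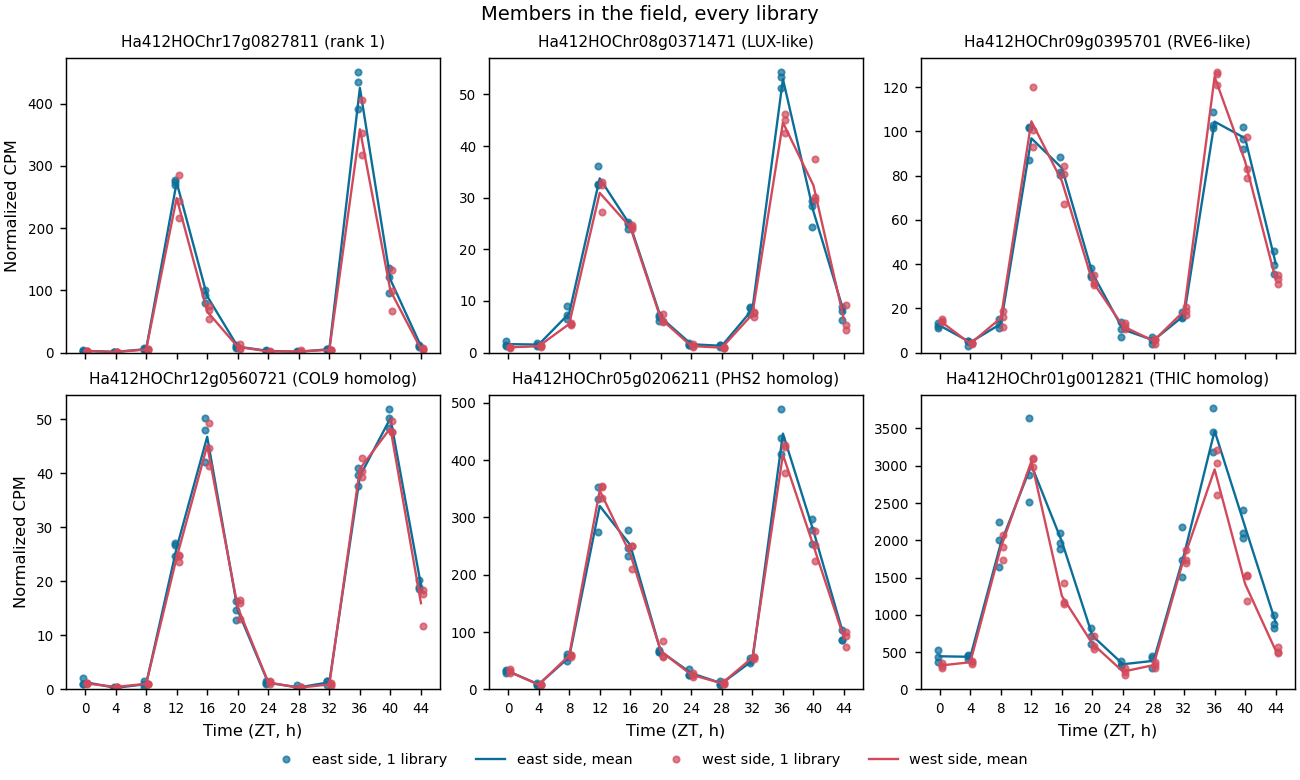
Normalized CPM (vertical axis, from 0) against ZT (h, horizontal axis, 2 days) for 6 evening members in the field. Points are single libraries (3 per side and time) and lines are means of the east and west sides; in the COL9 homolog the libraries at ZT16 (41.3 to 51.9 CPM) lie near or above the highest at ZT12 (42.8 CPM), and in the other 5 members the highest mean is at ZT12.

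Whether the evening peak also appears in plants that the choice of members did not use can be asked in the chamber. Here 147 of the 150 members were higher at ZT15 than at ZT3 (edgeR quasi-likelihood test, adjusted p under 0.05), 0 were lower, and the log2 fold change was above 0 in all 150, with a range of 0.41 to 7.65 and a median of 2.45. Over all 32644 genes tested, 36.7% were called in either direction, 17.7% higher and 19.1% lower, and the median log2 fold change was 0.00. Lit and shaded libraries of 1 time are paired by replicate number but entered the tests between times separately. The adjusted p-values of these tests may therefore be too small. The 12 libraries at ZT15 lay above all 12 at ZT3 in 121 members, against 2.93% of all genes in the normalized chamber table. The 3 members without a call were the SWEET11 homolog Ha412HOChr16g0747671 (log2 fold change 0.94, SE 0.41, adjusted p = 0.0598), the kelch repeat gene Ha412HOChr01g0038981 (0.47, SE 0.20, adjusted p = 0.0606) and Ha412HOChr17g0825911 (0.41, SE 0.18, adjusted p = 0.0682).

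The members then declined while the blue light stayed on. At ZT21, 142 of 150 were lower than at ZT15 and 0 were higher, with a median log2 fold change of -1.29, whereas 16.1% of all genes were called, 7.76% lower and 8.3% higher. The 12 libraries at ZT21 lay below all 12 at ZT15 in 98 members, against 0.954% of all genes. The gene with the smallest adjusted p in both comparisons was Ha412HOChr05g0206171, which held 5.25 to 7.86 CPM (median 6.88) at ZT3, 393 to 718 CPM (median 570) at ZT12, 356 to 654 CPM (median 488) at ZT15 and 37.7 to 69.2 CPM (median 53.0) at ZT21. Its log2 fold change was 6.22 (SE 0.13, adjusted p = 1.02e-63) from ZT3 to ZT15 and -3.22 (SE 0.11, adjusted p = 2.45e-44) from ZT15 to ZT21. The mean at ZT21 exceeded that at ZT3 in 141 members and was at least 2 times it in 92, shares that were not computed over all genes. In the field, too, the members' median level was higher at ZT20 (13.8 CPM) than at ZT4 (4.78 CPM).

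The chamber peak was at ZT12. The highest of the 9 means fell there in 132 members (88%), against 13.9% of the 20726 genes with a chamber mean of at least 5 CPM, and fell at ZT15 in 15 members and at ZT9 in 3. Of the 45 members whose highest field mean was at ZT16, 35 had their highest chamber mean at ZT12 and 8 at ZT15. The sampling times differ between the experiments, with no chamber library at ZT16 and no field library at ZT15, so this shift was not tested. At ZT12 the chamber mean was 0.209 to 1.89 times the field mean (median 0.836), as a description across tables that were normalized separately. Among the other modules chosen by the same rule, 89 of 150 genes with field acrophases from ZT8 to under ZT12 were called higher at ZT15 than at ZT3 and 20 lower, and 97 and 20 with acrophases from ZT16 to under ZT20. Of the first module, 72 genes were lower and 11 higher at ZT21 than at ZT15, and of the second 68 and 0. The highest chamber mean fell at ZT12 in 68 genes of the first (45.3%) and 30 of the second (20%).

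**Figure D3:**
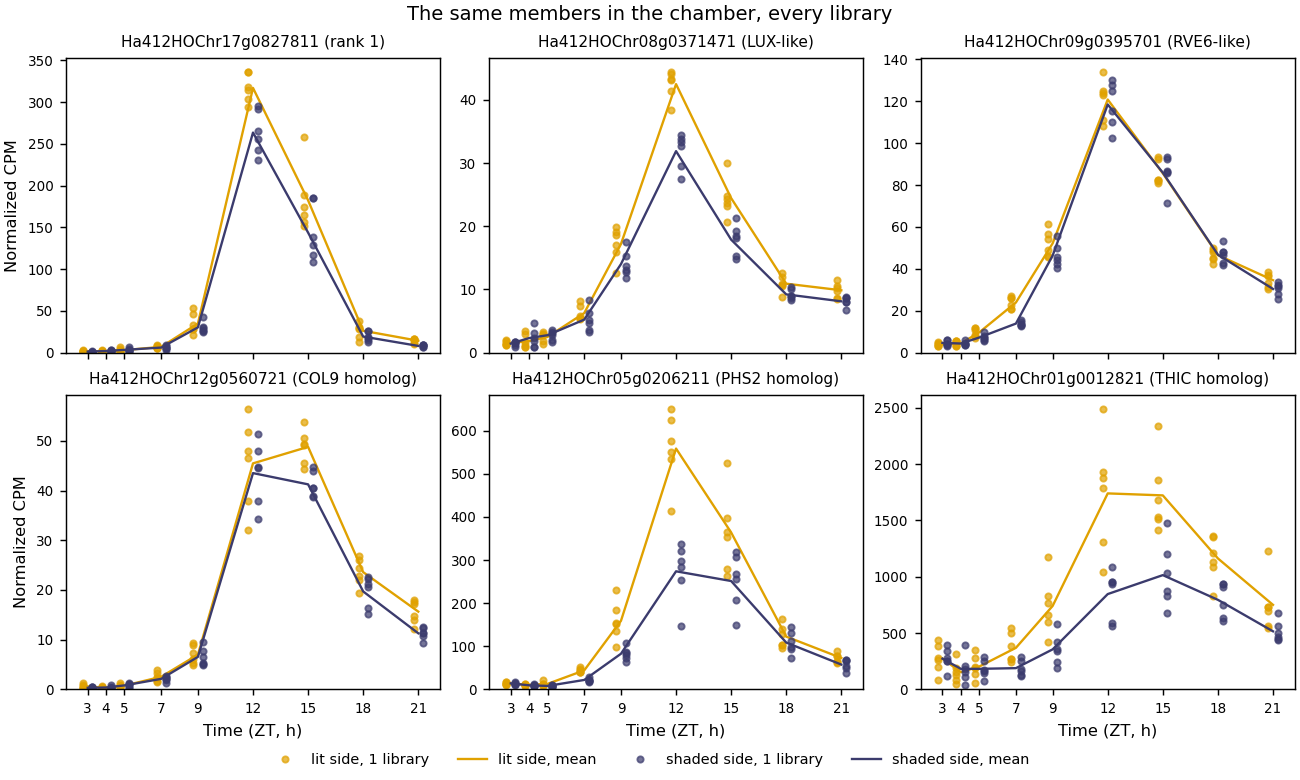
Normalized CPM (vertical axis, from 0) against ZT (h, horizontal axis) for the same 6 members in the chamber. Points are single libraries (6 per side and time) and lines are means of the lit and shaded sides; levels are lowest at ZT3 to ZT5 and highest at ZT12 or ZT15, and at ZT12 the lit libraries of the PHS2 homolog Ha412HOChr05g0206211 (413 to 651 CPM) lie above all shaded ones (148 to 338 CPM).

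**Figure D4:**
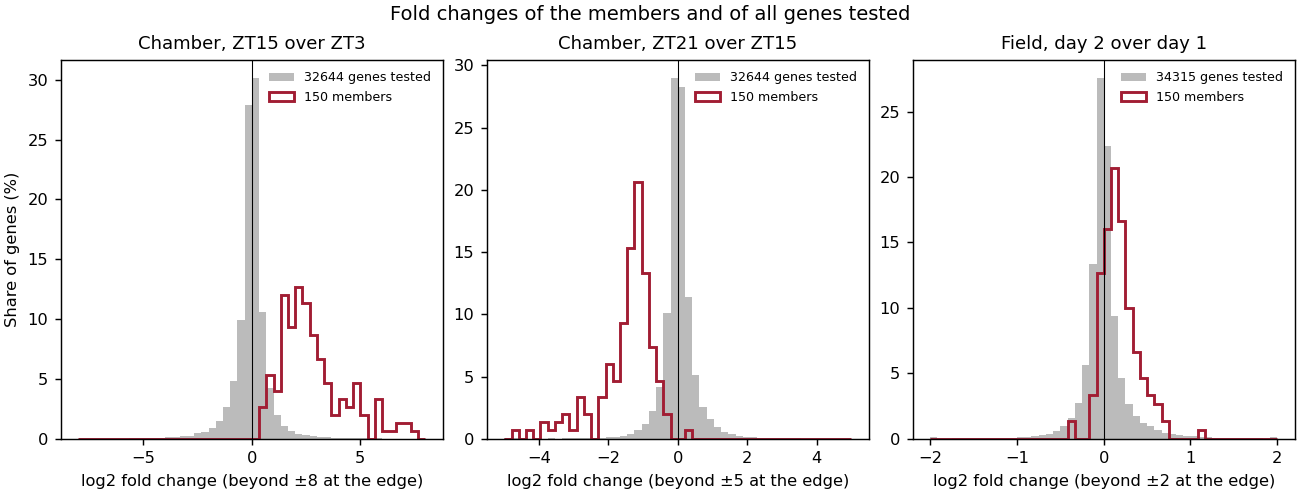
Distribution of log2 fold changes (horizontal axis) of the 150 members and of all genes tested (vertical axis, share of genes) in 3 panels: chamber ZT15 against ZT3, chamber ZT21 against ZT15 (32644 genes each) and field day 2 against day 1 (34315 genes). The members' medians are 2.45, -1.29 and 0.15, and those of all genes lie at 0.00, 0.01 and -0.01.

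Tissue markers also differed between ZT3 and ZT15. Of the epidermis markers, 2 of 15 were higher and 6 lower at ZT15 (summed level 158 to 693 CPM, median 404, at ZT3 and 257 to 345 CPM, median 293, at ZT15). Of the phloem markers 1 of 7 was higher (433 to 872 CPM, median 569, and 547 to 781 CPM, median 622), and 0 of 6 xylem markers were called. The green tissue marker fell from 607 to 1203 CPM (median 822) at ZT3 to 92.5 to 213 CPM (median 171) at ZT15. This marker also changed with time of day in the field, from a median of 399 CPM at ZT4 to 19.5 CPM at ZT16 and 7.60 CPM at ZT20. At ZT21 against ZT15, 2 of 15 epidermis markers were higher and 1 lower, and 1 of 7 phloem markers was lower. In the same comparison 3 of 6 xylem markers and the green tissue marker were higher. The part of tissue composition in the changes of the members was not tested.

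The clock and flowering members rose in the chamber as well. The LUX-like gene Ha412HOChr08g0371471 held 0.962 to 1.98 CPM (median 1.48) at ZT3, 27.6 to 44.4 CPM (median 36.4) at ZT12 and 14.8 to 30.1 CPM (median 21) at ZT15. That is a log2 fold change of 3.83 (SE 0.17, adjusted p = 5.81e-38) from ZT3 to ZT15. The RVE6-like gene Ha412HOChr09g0395701 held 3.02 to 6.25 CPM (median 4.18) at ZT3 and 71.3 to 93.4 CPM (median 85.8) at ZT15, a log2 fold change of 4.30 (SE 0.10, adjusted p = 1.73e-60). Both had already passed their highest mean at ZT12. The COL9 homolog Ha412HOChr12g0560721 held 0 to 1.21 CPM (median 0.363) at ZT3, 32 to 56.4 CPM (median 45.7) at ZT12 and 38.7 to 53.8 CPM (median 44.5) at ZT15, so in this gene the libraries at ZT12 and ZT15 overlapped, and its level at ZT21 was lower than at ZT15 (log2 fold change -1.75, SE 0.15).

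The other clock homologs place these genes in the cycle. All 14 homologs that the study lists were called between ZT3 and ZT15, 7 higher and 7 lower. Besides the 2 members, the PRR5-like gene Ha412HOChr08g0350221 (2.66), the TOC1-like gene Ha412HOChr02g0065721 (3.34), the PRR3-like gene Ha412HOChr07g0319851 (2.08) and both ELF3-like genes, Ha412HOChr07g0293611 (2.08) and Ha412HOChr02g0074131 (1.14), were higher on the log2 scale. The LHY-like gene Ha412HOChr15g0736201 (-8.22) and the morning RVE6-like gene Ha412HOChr16g0792081 (-1.68) were among the lower ones. The PRR5-like and TOC1-like genes have field acrophases of ZT12.2 and ZT14.0 but are not members. Their R2 values of 0.449 and 0.470 lie under the minimum, and the relative amplitude of the TOC1-like gene, 0.667, is also below that of the last member.

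Starch and sugar metabolism supplied 6 members. Starch breakdown was represented by the homologs of PHS2, an alpha-glucan phosphorylase, and of GWD1, which phosphorylates starch so that it can be degraded, and by Ha412HOChr06g0265451, which the tables list under starch catabolism. All 3 were higher at ZT15 than at ZT3 and lower at ZT21 than at ZT15. The PHS2 homolog Ha412HOChr05g0206211 held 7.31 to 14.6 CPM (median 8.53) at field ZT4 and 275 to 490 CPM (median 366) at field ZT12, and 9.61 to 18 CPM (median 13.1) at chamber ZT3. Its log2 fold change from ZT3 to ZT15 was 4.47 (SE 0.15, adjusted p = 8.17e-47). The GWD1 homolog Ha412HOChr12g0579801 went from 14.8 to 24.2 CPM (median 20.7) at field ZT4 to 115 to 166 CPM (median 148) at field ZT12, and its chamber log2 fold change was 2.43 (SE 0.12). For Ha412HOChr06g0265451 it was 1.79 (SE 0.10). Homologs of DIN10, annotated as a raffinose synthase (Ha412HOChr10g0474571, 1.58, SE 0.25), of the trehalose phosphate synthase-like TPS6 (Ha412HOChr15g0709931, 1.16, SE 0.17) and of MUR4, which makes UDP-arabinose for cell walls (Ha412HOChr16g0794351, 2.07, SE 0.10), were also called higher at ZT15 and lower at ZT21. TPS6, MUR4, SWEET11, AAP4 and CER4 homologs are named here after their values were seen.

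Membrane transport was the largest group with a shared role, with 7 members, of which 6 were higher at ZT15 than at ZT3 and 6 were lower at ZT21 than at ZT15. The exception in both was the SWEET11 homolog Ha412HOChr16g0747671, whose Arabidopsis counterpart exports sucrose toward the phloem. In the field it held 2.42 to 10.6 CPM (median 4.42) at ZT4 and 36.5 to 118 CPM (median 57.5) at ZT16. In the chamber its libraries were widely spread, at 6.86 to 65.3 CPM (median 18.7) at ZT12 and 1.86 to 20.1 CPM (median 7.61) at ZT15. The OPT3 homolog Ha412HOChr01g0008731, a transporter that loads iron into the phloem in Arabidopsis, held 12.3 to 18.7 CPM (median 16.1) at field ZT4 and 135 to 231 CPM (median 201) at field ZT12, with a chamber log2 fold change of 2.88 (SE 0.29). The homolog of the amino acid permease AAP4, Ha412HOChr15g0714111, changed by 2.19 (SE 0.21). Of 2 major facilitator genes, a broad family of transporters, Ha412HOChr09g0421361 changed by 3.16 (SE 0.21) and Ha412HOChr11g0511461 by 3.13 (SE 0.23). Homolog Ha412HOChr14g0665491 of UCP5, a carrier of the mitochondrial membrane, changed least among those called (0.99, SE 0.12).

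Genes of protein turnover and signaling followed the same course. All 4 RING or ankyrin repeat genes of ubiquitin ligase types were higher at ZT15 and lower at ZT21, with log2 fold changes of 2.11 to 4.15 from ZT3 to ZT15. Among them was the ATL6 homolog Ha412HOChr14g0682461, an Arabidopsis regulator of carbon and nitrogen responses (2.15, SE 0.13). The XBAT31 homolog Ha412HOChr01g0016821, whose counterpart controls growth in warmth, held 80.5 to 101 CPM (median 89.3) at field ZT4 and 406 to 795 CPM (median 525) at field ZT12. Of 3 peptidase genes, the cysteine protease gene Ha412HOChr16g0759611 held 48.9 to 66.4 CPM (median 59.3) at chamber ZT3 and 496 to 1040 CPM (median 732) at ZT15 (log2 fold change 3.64, SE 0.08). The 4 protein kinase genes were all higher at ZT15 (1.54 to 3.06), and 3 of them were lower at ZT21. Phosphoinositide signaling had 3 members, a homolog of the phospholipase PLC4 (Ha412HOChr01g0018151, 1.48, SE 0.17) and 2 homologs of PIP5K9, a kinase that makes a membrane signaling lipid, both with a field acrophase of ZT13.3. Ha412HOChr02g0081951 changed by 1.76 (SE 0.12) and Ha412HOChr00c00180g0863191 by 1.91 (SE 0.12). The 2 may share reads if their sequences are alike, and their values are uncertain to that extent.

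All 4 members of stress and abscisic acid responses rose from ZT3 to ZT15 and fell by ZT21. The HIPP26 homolog Ha412HOChr10g0451501, a metal-binding protein linked to drought responses, rose from 10.9 to 23.8 CPM (median 14.5) at chamber ZT3 to 87.5 to 126 CPM (median 109) at ZT15 (log2 fold change 2.86, SE 0.12). The homologs of DEAR3, a DREB-type transcription factor (Ha412HOChr09g0409501, 2.39, SE 0.16), and of the dehydration-induced ERD15 (Ha412HOChr07g0323011, 2.02, SE 0.15) also rose. The PYL8 homolog Ha412HOChr07g0326201, an abscisic acid receptor, held 5.93 to 13.9 CPM (median 7.42) at chamber ZT3 and 8.27 to 21.4 CPM (median 15.7) at ZT15, so its libraries overlapped, and its log2 fold change of 0.89 (SE 0.16, adjusted p = 1.34e-06) was the smallest of the 4.

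Among the rest, the THIC homolog Ha412HOChr01g0012821, an enzyme of thiamin synthesis, had the highest field mean in CPM, 1347.5, a scale without correction for gene length. It went from 196 to 522 CPM (median 317) at field ZT0 to 2513 to 3773 CPM (median 3094) at field ZT12, and reached 561 to 2493 CPM (median 1060) at chamber ZT12. The polyamine oxidase PAO4 homolog Ha412HOChr15g0742501 (4.83, SE 0.14) and the plastid transcription component PTAC5 homolog Ha412HOChr07g0286771 (2.82, SE 0.10) also rose from ZT3 to ZT15. The 2 cytoskeleton members did so too, namely the homologs of actin-depolymerizing factor ADF1 (Ha412HOChr05g0204821, 3.02, SE 0.09) and of the beta-tubulin TUB6 (Ha412HOChr17g0804491, 3.42, SE 0.18).

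The peak was higher on the second field day. Over all times and both sides, 76 of 150 members were higher on day 2 than on day 1 and 0 were lower (edgeR), against 19.4% of 34315 genes called in either direction, 9% higher and 10.4% lower. East and west libraries entered this test separately although they come from the same plants, so its adjusted p-values may be too small. In the module with field acrophases from ZT16 to under ZT20, 61 of 150 genes were higher and 9 lower. In that from ZT8 to under ZT12, 24 were higher and 25 lower. The median log2 fold change of the members was 0.15 (range -0.35 to 1.11), that of all genes -0.01, and 124 members were above 0. The fitted amplitude was larger on day 2 in 143 members (median ratio 1.21), a share that was not computed over all genes. The relative amplitude differed less, with a median of 0.950 on day 1 and 0.975 on day 2. These fits use the field values that chose the members, so they are a description. The day difference was most frequent at the peak: at ZT12 the mean was higher on day 2 in 140 members with a median ratio of 1.26, against 80 members at ZT0, 91 at ZT4, 114 at ZT8, 125 at ZT16 and 113 at ZT20. Of genes with at least 5 CPM, 49.2% were higher on day 2 at ZT12. At ZT0, ZT4, ZT8, ZT16 and ZT20 these shares were 39.9%, 47.8%, 45.4%, 49.5% and 53.7%.

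Ha412HOChr13g0621671, which has no name in the tables used here, had the smallest adjusted p for the days. At ZT12 its 6 libraries held 218 to 300 CPM (median 243) on day 1 and 383 to 433 CPM (median 415) on day 2, and at ZT16 they held 426 to 497 CPM (median 464) and 525 to 590 CPM (median 553). The days did not overlap at either time, and the log2 fold change over all times was 0.51 (SE 0.04, adjusted p = 1.27e-13). The LUX-like gene Ha412HOChr08g0371471 showed the same order at ZT12, with 27.3 to 36.2 CPM (median 32.5) on day 1 and 42.5 to 54.4 CPM (median 48.7) on day 2, but its log2 fold change over all times was only 0.18 (SE 0.05, adjusted p = 0.0124) and lost its call without replicate 1 (0.09). The SWEET11 homolog Ha412HOChr16g0747671 changed by 0.69 (SE 0.09, adjusted p = 1.56e-07), with 32.8 to 50.9 CPM (median 44.9) at ZT12 on day 1 and 65.2 to 106 CPM (median 72.3) on day 2. Without replicate 1 the number called was 50. Tissue markers also differed between the days: 12 of 15 epidermis markers were higher on day 2 (their summed level ranged from 120 to 509 CPM with a median of 255 on day 1, and from 186 to 470 CPM with a median of 342 on day 2), 3 of 6 xylem markers were lower, the green tissue marker was lower, and 1 of 7 phloem markers was higher and 1 lower. Their part in the day difference was not tested, and the 2 dates cannot be told apart from anything else that differed between them.

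East and west sides of field stems shared the evening peak. Because the fit used both sides together, genes whose sides differ strongly were less likely to be members. The acrophase on the west side minus that on the east side ranged from -1.33 to 2.56 h (median -0.18 h), and the amplitude ratio of west to east from 0.541 to 1.58. No member had acrophases over 3 h apart or amplitudes over 2-fold apart. Tested time by time, 0 members differed between the sides at ZT0 and 0 at ZT4 (edgeR; 19 and 18 had an unadjusted p under 0.05, and DESeq2 called 1 and 0), against 0.0554% and 0.152% of all genes. East and west peels were taken from the same 6 plants at each time point, 2 peels to a library, so the sides were also compared within a block for each replicate number, time point and day. With the block 6 members were called at ZT0 (all genes 1.18%) and 2 at ZT4 (1.56%).

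From ZT8 on, more members differed between the sides, and the number depended on the block. Without it, at ZT8, 7 members were lower on the west side and 0 higher, against 1.57% of all genes called, 0.866% lower and 0.708% higher. At ZT12, 6 were lower and 0 higher (all genes 1.79%, 1.15% lower and 0.635% higher). At ZT16 the count was largest, with 11 lower and 6 higher (all genes 5.78%, 2.35% lower and 3.43% higher), and at ZT20, 5 were lower and 3 higher (all genes 3.54%, 0.918% lower and 2.63% higher). In total 23 members differed at 1 or more times, against 9.82% of all genes, 15 only toward lower and 4 only toward higher values on the west side and 4 in both directions. Of genes with a field mean of at least 5 CPM, 2.32%, 2.62%, 8.45% and 5.36% were called at ZT8, ZT12, ZT16 and ZT20. The members had 4.67%, 4%, 11.3% and 5.33%, above these shares at ZT8, ZT12 and ZT16 only. With the block 22 were called at ZT8 (all genes 5.19%), 16 lower (2.69%) and 6 higher (2.5%), and 25 at ZT12 (8.11%), 15 lower (4.82%) and 10 higher (3.28%). The 46 at ZT16 (12.5%) split into 38 lower (6.19%) and 8 higher (6.31%), and the 31 at ZT20 (9.08%) into 22 lower (3.59%) and 9 higher (5.48%). At 1 or more times the block called 76 members, against 24.2% of all genes. The counts without the block also depended on single replicate numbers. Without replicate 1 they were 5 at ZT8, 1 at ZT12, 9 at ZT16 and 2 at ZT20, without replicate 2 they were 3, 3, 5 and 1, and without replicate 3 they were 4, 4, 5 and 5. At ZT16, 2 of 15 epidermis markers were higher on the west side (summed level 316 to 509 CPM, median 404, against 286 to 383 CPM, median 358, on the east), the green tissue marker was lower (9.28 to 17.6 CPM, median 14.2, against 21.4 to 43.4 CPM, median 26.6), and their part in these differences was not tested.

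The TUB6 homolog Ha412HOChr17g0804491, a beta-tubulin gene for the microtubules that guide cell growth, gave the smallest adjusted p in the test of the rhythm between the sides. At ZT8 it held 366 to 485 CPM (median 395) on the east side and 159 to 243 CPM (median 206) on the west side, a log2 fold change of -1.01 (SE 0.13, adjusted p = 2.75e-07). At ZT12 the west side was still lower (-0.63, SE 0.13, adjusted p = 0.00222). At ZT20 the order had turned, with 371 to 589 CPM (median 445) on the east and 678 to 1028 CPM (median 805) on the west side (0.89, SE 0.13, adjusted p = 1.02e-05). The fitted acrophase was ZT14.1 on the east and ZT16.6 on the west side, and the test of cosine and sine terms between the sides gave an adjusted p of 7.32e-09. That test called 8 members, against 6.53% of all genes, and 2 without replicate 1, 3 without replicate 2 and 4 without replicate 3. With the block it called 59, against 19.6% of all genes. The libraries of the sides did not overlap at ZT8, ZT12 or ZT20, and tubulin was higher on the east side at ZT8 and ZT12 and on the west side at ZT20. With the block it was also higher on the west side at ZT0 (0.48, SE 0.09, adjusted p = 0.00641), and it was not called at ZT4 or ZT16 in either fit.

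Ha412HOChr09g0416201, without a name, took the same course, with 30.0 to 53.5 CPM (median 38.5) on the east and 14.8 to 23.8 CPM (median 18.9) on the west side at ZT12 (-1.13, SE 0.16, adjusted p = 3.48e-06), and a higher west side at ZT20 (0.64, SE 0.17, adjusted p = 0.021). The DUF641 gene Ha412HOChr10g0463301, of unknown function, was higher on the west side at ZT16, with 24.9 to 41.0 CPM (median 31.3) on the east and 60.1 to 85.8 CPM (median 65.2) on the west side (1.11, SE 0.14, adjusted p = 9.57e-08), and lower at ZT8 (-0.64, SE 0.15, adjusted p = 0.00819). Ha412HOChr17g0818271, listed under a cell wall term, was lower on the west side at ZT16, with 538 to 715 CPM (median 605) on the east and 322 to 463 CPM (median 381) on the west side (-0.69, SE 0.12, adjusted p = 9.89e-05). The XBAT31 homolog Ha412HOChr01g0016821 was lower on the west side at ZT8, ZT12, ZT16 and ZT20 by log2 fold changes of -0.39, -0.44, -0.47 and -0.50 (SE 0.09 each), the last of which lost its call without replicate 2. The THIC homolog Ha412HOChr01g0012821 was lower there at ZT16 (-0.64, SE 0.12, adjusted p = 0.000236) and ZT20 (-0.51, SE 0.12, adjusted p = 0.00668). The LUX-like, RVE6-like, COL9, PHS2 and GWD1 homologs were called at none of the 6 times. With the block, THIC was also lower on the west side at ZT0 (-0.49, SE 0.09, adjusted p = 0.00423), and the GWD1 homolog Ha412HOChr12g0579801 was lower at ZT16 (-0.26, SE 0.07, adjusted p = 0.00725) and ZT20 (-0.34, SE 0.07, adjusted p = 0.00162).

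**Figure D5:**
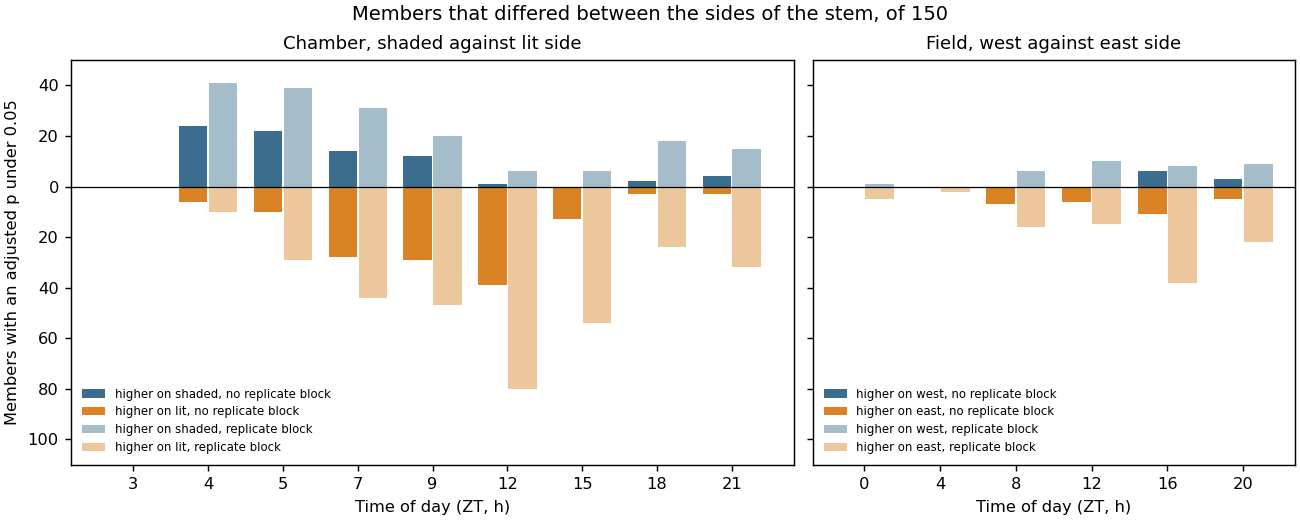
Number of the 150 members called between the sides (vertical axis) at each ZT (h, horizontal axis), in the chamber (shaded against lit) and in the field (west against east). Bars upward count members higher on the shaded or west side and bars downward those higher on the lit or east side, dark without and light with a block for replicate number; in the chamber, upward bars dominate at ZT4 (24 of 30) and downward bars at ZT12 (39 of 40).

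In the chamber, side differences among the members turned from mostly shaded to mostly lit over the afternoon. At ZT3, before the light could act, 0 members were called by edgeR, against 0.00306% of all genes (2 members had an unadjusted p under 0.05, and DESeq2 called 0). After 1 h of light, at ZT4, 30 members were called (all genes 10.8%), 24 higher on the shaded side (5.15%) and 6 lower (5.67%). The 32 called at ZT5 (14.1%) split into 22 higher (6.75%) and 10 lower (7.36%). By ZT7 the balance had turned, with 42 called (23.3%), 14 higher (11.4%) and 28 lower (11.8%), and ZT9 was similar, with 41 called (22.3%), 12 higher (10%) and 29 lower (12.2%). Almost all of the 40 called at ZT12 (16.7%) were lower on the shaded side, 39 (9.39%) against 1 higher (7.31%). The median log2 fold change of the members there was -0.35 and that of all genes -0.03. The members lay between the neighboring modules chosen by the same rule. On the shaded side at ZT4, the module of ZT8 to ZT12 had 8 genes higher and 19 lower, and that of ZT16 to ZT20 had 63 and 6. At ZT12 the first had 4 higher and 61 lower, and the second 10 and 11. Calls of members then became few, with 13 at ZT15 (7.73%), all of them lower (4.73%, with 3.01% of all genes higher). At ZT18 there were 5 (6.51%), 2 higher (2.2%) and 3 lower (4.31%), and at ZT21 there were 7 (6.22%), 4 higher (2.19%) and 3 lower (4.03%). In total 97 members were called at 1 or more times, against 42.3% of all genes, 56 only lower on the shaded side, 37 only higher and 4 in both directions. All genes include those under the 5 CPM that the rule asks of members. Of genes with a field mean of at least 5 CPM, 13.4%, 18.5% and 21.7% were called at ZT4, ZT5 and ZT12. The members' shares there were 20%, 21.3% and 26.7%. At ZT7, ZT9, ZT15, ZT18 and ZT21 these genes had 30.4%, 28.4%, 9.91%, 8.49% and 7.84%, and the members fewer, 28%, 27.3%, 8.67%, 3.33% and 4.67%.

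Lit and shaded libraries with the same replicate number deviated together, so the counts were also obtained with a block for each number and time. With the block 0 were called at ZT3 (all genes 0%), 51 at ZT4 (20.8%) and 68 at ZT5 (26.4%). The counts were 75 at ZT7 (37.3%), 67 at ZT9 (36.7%) and 86 at ZT12 (31.7%), and then 60 at ZT15 (20%), 42 at ZT18 (17.4%) and 47 at ZT21 (17.5%). Members higher on the shaded side outnumbered the lower ones at ZT4, 41 (10.4%) to 10 (10.4%), and at ZT5, 39 (13.1%) to 29 (13.3%). Lower members were more frequent at ZT7, 44 (18.8%) to 31 (18.6%), and at ZT9, 47 (19%) to 20 (17.7%). At ZT12, 80 of the 86 were lower (17.3%) and 6 higher (14.4%), and at ZT15, 54 of 60 (11%) and 6 (9.05%). The block gave 24 lower (9.78%) and 18 higher (7.62%) at ZT18. At ZT21 it turned the balance of 4 higher and 3 lower members into 15 higher (8.01%) and 32 lower (9.48%). Without the block, some counts rested on single replicate numbers. The count at ZT4 was 19 without replicate 1 and 20 without replicate 4. At ZT12 it was 26 without replicate 1, 24 without replicate 2 and 26 without replicate 4, and at ZT15 it was 4, 6, 6, 8, 5 and 7 without replicates 1 to 6 in that order. At ZT18 it was 3 without replicate 1 or 5, and at ZT21 it was 4 without replicate 1, 3 without replicate 3 and 4 without replicate 4. Beside these, 3 of 15 epidermis markers were higher on the shaded side at ZT9, 2 at ZT5 and 1 at ZT7, 1 was lower at ZT4, and 1 of 7 phloem markers was lower at ZT9, ZT12 and ZT15 (summed phloem level at ZT15 579 to 781 CPM, median 745, on the lit and 547 to 624 CPM, median 582, on the shaded side). Their part was not tested.

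All 3 genes of starch breakdown were lower on the shaded side at ZT7, and 2 of them at other times too (with the block, all 3 also at ZT5, ZT9 and ZT12). At ZT12 the PHS2 homolog Ha412HOChr05g0206211 held 413 to 651 CPM (median 565) on the lit and 148 to 338 CPM (median 291) on the shaded side, with no overlap. The log2 fold change was -1.06 (SE 0.18, adjusted p = 5.48e-06), and the gene was also lower at ZT5, ZT7, ZT9 and ZT15. The GWD1 homolog Ha412HOChr12g0579801 was lower at ZT7 (-0.54, SE 0.16), ZT9 (-0.51, SE 0.15) and ZT12 (-0.58, SE 0.15, adjusted p = 0.00389), where it held 134 to 196 CPM (median 166) on the lit and 80.7 to 139 CPM (median 120) on the shaded side. Ha412HOChr06g0265451 was lower at ZT7 (-0.49, SE 0.14, adjusted p = 0.00477). In 2 other sugar genes the shaded side was higher, namely the DIN10 homolog Ha412HOChr10g0474571 at ZT4 (1.10, SE 0.37), ZT5 (1.63, SE 0.38, adjusted p = 0.000783) and ZT7 (1.28, SE 0.36), and the TPS6 homolog Ha412HOChr15g0709931 at ZT4 (0.99, SE 0.24) and ZT18 (0.80, SE 0.24).

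Of the 7 transport members, 4 were lower on the shaded side at ZT9 and 4 at ZT12, while the OPT3 homolog Ha412HOChr01g0008731 was called at none of the times without the block and at 7 times from ZT5 to ZT21 with it (log2 fold changes of -0.78 to -1.06), always lower. The major facilitator gene Ha412HOChr09g0421361 was higher at ZT4 (1.35, SE 0.29, adjusted p = 0.000249) and ZT5. The SWEET11 homolog Ha412HOChr16g0747671 was lower at 5 times from ZT5 to ZT15, with log2 fold changes of -1.56 to -1.90. At ZT9 it held 18.4 to 94.5 CPM (median 30.3) on the lit and 3.5 to 19.7 CPM (median 10.7) on the shaded side. The AAP4 homolog Ha412HOChr15g0714111 was lower at ZT9 (-1.30, SE 0.28, adjusted p = 0.000246), with 38.2 to 72.5 CPM (median 44.2) on the lit and 12.8 to 25.2 CPM (median 19.9) on the shaded side, and at ZT12 and ZT15. The permease gene Ha412HOChr14g0683921, matched to a tryptophan and tyrosine transporter, was lower already at ZT4 (-1.24, SE 0.23, adjusted p = 3.27e-05), with 1.38 to 3.44 CPM (median 2.2) and 0.657 to 1.32 CPM (median 0.990). The THIC homolog Ha412HOChr01g0012821 was lower at ZT7, ZT9 and ZT12 (-0.99, -1.09 and -1.07, SE 0.33 each), holding 1038 to 2493 CPM (median 1835) on the lit and 561 to 1083 CPM (median 943) on the shaded side at ZT12, which overlapped.

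Differences toward the lit side were also present outside these groups. Ha412HOChr02g0075111, listed under herbivore response and sesquiterpenoid terms, held 41.0 to 112 CPM (median 80.5) on the lit and 7.12 to 18.1 CPM (median 8.16) on the shaded side at ZT9 (-2.88, SE 0.45, adjusted p = 2.79e-07). The cysteine protease gene Ha412HOChr16g0759611 held 853 to 1261 CPM (median 1068) and 582 to 773 CPM (median 690) at ZT12 (-0.70, SE 0.11, adjusted p = 2.17e-07). The ATL6 homolog Ha412HOChr14g0682461 was lower on the shaded side at ZT9 (-0.58, SE 0.17), ZT12 (-0.79, SE 0.17, adjusted p = 0.000255) and ZT15 (-0.77, SE 0.17). Smallest in p among the lower members at the other times were Ha412HOChr05g0241791 at ZT5 (-1.35, SE 0.29, adjusted p = 0.000225), the acetamidase family gene Ha412HOChr14g0671551 at ZT15 (-1.03, SE 0.22, adjusted p = 0.000433), Ha412HOChr07g0287201 at ZT18 (-0.46, SE 0.11, adjusted p = 0.00331) and Ha412HOChr14g0687061 at ZT21 (-0.89, SE 0.24, adjusted p = 0.0121, lost without replicate 1).

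Fewer members were higher on the shaded side, and they included the tubulin and the receptor gene. The PYL8 homolog Ha412HOChr07g0326201 was higher there at 6 times. At ZT7 it held 3.01 to 6.90 CPM (median 3.98) on the lit and 10.2 to 20.6 CPM (median 16.1) on the shaded side, a log2 fold change of 1.83 (SE 0.23, adjusted p = 5.15e-10), and at ZT9 4.54 to 6.90 CPM (median 6.26) and 14.3 to 25.5 CPM (median 19.2) (1.65, SE 0.22, adjusted p = 6.22e-09). The sides did not overlap at either time. The other calls were at ZT5 (1.35), ZT12 (0.65, adjusted p = 0.026, lost without replicate 1, 2 or 4), ZT18 (1.05) and ZT21 (1.53, adjusted p = 4e-07). In the field the sides of this gene were called at none of the 6 times without the block, and with it the gene was lower on the west side at ZT16 (-0.26, SE 0.09, adjusted p = 0.0355) and ZT20 (-0.32, SE 0.10, adjusted p = 0.029).

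The TUB6 homolog Ha412HOChr17g0804491 was higher on the shaded side from ZT4 to ZT9, by log2 fold changes of 1.19, 2.00, 1.81 and 0.95 at ZT4, ZT5, ZT7 and ZT9. At ZT5 it held 54.6 to 144 CPM (median 66.9) on the lit and 231 to 483 CPM (median 329) on the shaded side (SE 0.24, adjusted p = 1.18e-10). From ZT12 to ZT21 it was not called, with a log2 fold change of 0.26 (SE 0.23, adjusted p = 0.507) at ZT12. Ha412HOChr10g0463301 of unknown function gave the smallest adjusted p at ZT5, with 5.29 to 11.9 CPM on the lit and 25.9 to 51.8 CPM on the shaded side (2.14, SE 0.22, adjusted p = 1.79e-13). The ankyrin repeat gene Ha412HOChr15g0708511 did so at ZT4, with 16.4 to 27.5 CPM (median 20.5) and 33.1 to 70.7 CPM (median 42.9) (1.15, SE 0.16, adjusted p = 9.71e-09). The homolog of CER4, which makes wax alcohols in the epidermis, Ha412HOChr14g0676811, was higher on the shaded side at ZT5 (1.02, SE 0.24), ZT7 (0.68, SE 0.23) and ZT9 (0.70, SE 0.23).

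Of the clock and flowering members, 1 was called between the sides without the block. The RVE6-like gene Ha412HOChr09g0395701 was lower on the shaded side at ZT7, with 20.8 to 27.2 CPM (median 24.3) on the lit and 12.8 to 15.8 CPM (median 13.5) on the shaded side (-0.81, SE 0.12, adjusted p = 1.5e-07), and at ZT5 (-0.42, SE 0.13, adjusted p = 0.0177), while at its peak at ZT12 the log2 fold change was -0.06 (SE 0.12, adjusted p = 0.819). The LUX-like gene Ha412HOChr08g0371471 had no call in this fit. At ZT12 its libraries nevertheless did not overlap, with 38.4 to 44.4 CPM (median 43.3) on the lit and 27.6 to 34.4 CPM (median 33) on the shaded side. The log2 fold change of -0.44 (SE 0.19) had an adjusted p of 0.107 without and of 8.23e-05 with the block, which also called the gene lower at ZT7, ZT9 and ZT15. The COL9 homolog Ha412HOChr12g0560721 held 32 to 56.4 CPM on the lit and 34.4 to 51.5 CPM on the shaded side at ZT12 (log2 fold change -0.09, SE 0.20, adjusted p = 0.831), and the block called it lower at ZT21 only (-0.45, SE 0.14, adjusted p = 0.0196).

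Annotation covers less than the whole group. Of the 150 members, 65 have a best Arabidopsis match in the supplementary tables, 5 are listed there without one, and 80 are not annotated, 9 of which appear under a GO term. The groups named above hold 36 members. By their identifiers the members lie on all 17 chromosomes, from 4 on chromosome 3 to 15 on chromosome 9, with 1 unplaced. In 6 pairs the members are near neighbors in identifier order, among them Ha412HOChr05g0206171 and the PHS2 homolog Ha412HOChr05g0206211, which are 2 places apart. Their field acrophases are both ZT13.8. The acetamidase family gene Ha412HOChr14g0671551 lies next to Ha412HOChr14g0671561.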

How the data were processed

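RNA-seq was done on peels of wild-type HA412-HO stems, 72 libraries from heliotropism in the field and 108 from phototropism in the chamber, each from 2 plants. Transcripts were built by the authors with Cufflinks 2.2.1 from the Ha412HOv2 genome and the Eugene annotation. After a quality filter, the authors counted reads on them with Salmon 1.4.0 (versions from the submitters' processing notes) and deposited estimated counts, which need not be whole, for 46480 genes. They also deposited a normalized signal table for each experiment, CPM scaled with edgeR's TMM factors. CPM is not scaled by gene length, so levels of different genes were not compared with a test. The deposited tables hold no columns of the authors' own comparisons.

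Members were found with a cosine fit to the deposited CPM (numpy 2.4.6, pandas 2.3.3). Members and gene lists were chosen with earlier results of these data known. Genes were named as follows: the 10 largest relative amplitudes, the members beside each limit, the member of smallest adjusted p in each comparison, the clock homologs, and 15 homologs of known role. SWEET11, TPS6, AAP4, CER4 and MUR4 homologs and the other genes were named after their values were seen. Names are best Arabidopsis matches from the supplementary tables. Chromosomes are read from the identifiers, and no sequence is shown because the reference used here is of another assembly and 0 identifiers matched.

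Estimated counts were rounded and genes with at least 10 counts in 3 field or 6 chamber libraries were tested with edgeR 4.0.16 (R 4.3.3, TMM, quasi-likelihood F test) in 1 fit per experiment over all groups, with Benjamini-Hochberg adjustment over all genes tested and a threshold of 0.05. SE is the log2 fold change divided by the square root of F. The days were combined for the comparison of sides. A gene is called when its adjusted p is under the threshold. Nothing in the labels says that libraries of the same side and time point differ by more than the plants pooled, so p-values measure only the spread between these libraries. In the field comparison of sides, each group holds libraries of both days, so without the block that spread includes the difference between the days. The procedure was tested on simulated data. In the chamber, lit and shaded libraries of the same time and replicate number deviated from their group means together (r above 0.1 in 54 of 54 pairs, lowest 0.372, median 0.613, over 20726 genes), so the numbers pair the sides. In the field, the methods give both sides as peels of the same 6 plants at each time point but do not say that a number marks the same plants, and r was above 0.1 in 35 of 36 pairs (lowest 0.0904, median 0.360, highest 0.589, over 21182 genes). Blocked counts of the sides stand beside the main ones in both experiments. In the comparisons of times and of days, the block was 1 term per replicate number over all times, which does not pair the sides. Alternatives were DESeq2 1.42.0, no filter, a replicate block, fits of the compared times only, and leaving out each replicate number.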

Additional observations from a re-analysis of the deposited data

Results flagged for a closer look

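In 42 groups of 6 libraries examined among named members, 2 held a library that stood apart by Dixon's criterion for 6 values, which chance alone does in about 1 of 20 groups. The east library of replicate 3 at ZT8 of the second field day held 485 CPM of the TUB6 homolog Ha412HOChr17g0804491, where the other 5 east libraries held 366 to 402 CPM. The 6 are those of both days, and the west libraries at ZT8 (159 to 243 CPM) lie below all of them. The lit library of replicate 5 at ZT21 in the chamber held 5.00 CPM of the PYL8 homolog Ha412HOChr07g0326201, where the others held 2.46 to 3.30 CPM, and the shaded libraries held 4.75 to 15.5 CPM. The rhythm of the TUB6 homolog Ha412HOChr17g0804491 differed between the west and east sides by a test of the difference itself (edgeR, adjusted p = 7.32e-09).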

How the results depend on the processing

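No call of the members reversed under any alternative run. Among the values of single named genes that were compared, 1421 kept their side of the threshold, 33 lost and 12 gained a call. These counts do not hold all the calls that the replicate block added between the sides, such as those of the OPT3 and LUX-like genes given above. The rule itself gave 122 to 144 of the 150 members under 10 of 11 other settings, and 85 without the minimum of mean CPM. Members called at ZT15 against ZT3 numbered 146 to 150 and at ZT21 against ZT15 137 to 146 under all alternatives, with 150 and 146 under a replicate block. For the days, the block gave 76, DESeq2 81 and no filter 70, and leaving out a replicate 50 to 64.

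Between west and east sides, with a replicate block the members called were 6 at ZT0, 2 at ZT4, 22 at ZT8, 25 at ZT12, 46 at ZT16 and 31 at ZT20, 76 at any time, and 59 for the rhythm. DESeq2 called 1 at ZT0, 10 at ZT12 and 13 at ZT20, and a fit of the compared times called 10 at ZT12 and 1 at ZT20. Leaving out a replicate gave 3 to 5 at ZT8, 1 to 4 at ZT12, 5 to 9 at ZT16, 1 to 5 at ZT20, 9 to 13 at any time and 2 to 4 for the rhythm.

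Between shaded and lit sides, the replicate block gave 51, 68, 75, 67, 86, 60, 42 and 47 at the 8 times after ZT3. A fit of the compared times called 14 at ZT4, 25 at ZT15 and 15 at ZT18, and DESeq2 called 12 at ZT21. Leaving out a replicate gave 19 to 29 at ZT4, 24 to 30 at ZT12, 4 to 8 at ZT15, 3 to 5 at ZT18 and 3 to 5 at ZT21. The cause of these shifts was not tested, except that fewer libraries enter when a replicate is left out and when only the compared times are fitted. At the SWEET11 homolog, ZT15 against ZT3 was called under DESeq2, the block, the compared times and without replicate 2 or 3. Low counts limit members with libraries at 0.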

Other observations

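Gene lists around the evening group held few of its members, 2 of the clock list, 1 of the heat shock list, 1 of the microtubule-based list and 1 of the detection of bacterium list. Over all genes tested, 17.7% were higher and 19.1% lower at ZT15 than at ZT3, and 8.3% were higher and 7.76% lower at ZT21 than at ZT15 (edgeR). In the lists of cell division, most genes were called higher at ZT15 and lower at ZT21. Of 16 genes of microtubule-based processes 13 were higher at ZT15 and 12 were lower at ZT21 than at ZT15, and of 16 genes that regulate mitotic division 13 and 13. Of 36 cyclin genes 21 were higher and 6 lower at ZT15, and 20 were lower and 2 higher at ZT21, and of 16 kinesin genes 10 were higher and 1 lower, then 10 lower and 1 higher. The study chose the process lists from the heliotropism libraries, so they are not independent evidence of a direction.

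Lists of chloroplast RNA genes had calls toward higher values at ZT15 and few at ZT21. Of 11 genes of chloroplast RNA modification 7 were higher at ZT15 than at ZT3 and 0 lower, and 1 was lower at ZT21 than at ZT15. Of 10 of chloroplast RNA processing 5 were higher at ZT15 and 1 was lower at ZT21, and of 11 of C-to-U editing 7 and 2. Of 67 pentatricopeptide repeat genes 17 were higher and 5 lower at ZT15. Of 22 xyloglucan enzymes of the cell wall 3 were higher and 12 lower at ZT15, and of 70 auxin signaling genes 14 and 23. Of 17 expansin genes 6 were higher and 3 lower, of 68 heat shock genes 13 and 17, of 18 LEA and dehydrin genes 4 and 4, and of 23 ERF genes 2 and 6. Detection of bacterium (9 genes) had 6 higher and 0 lower, negative regulation of cell growth (16) 6 and 4, and response to flooding (7) 1 and 1.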
